A study of Mus musculus with 12 samples.

Results

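B lineage and major histocompatibility complex (MHC) class II transcripts were followed in 4 kinds of mouse CD4+ T cell culture, where neither set is part of the T helper programme. The members were listed by gene name, 38 in all: 28 genes of the B lineage and 10 of class II presentation. All 38 were found on the array, Ighm under the older name Igh-6, and all 38 were among the 17925 genes tested. Each gene was read from the probe with the highest mean of the 61 probes that the members had between them.

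The study profiled Th9 cells, a helper T cell type named for its IL-9, beside Th2 and regulatory T (Treg) cells. Every culture began with naive CD4+CD62L+ T cells of C57BL/6 mice, selected magnetically from spleen and lymph nodes, activated with anti-CD3 and anti-CD28, expanded on day 3 and kept for 5 days. Th2 cultures held IL-4 and anti-IFN-γ, Th9 cultures held IL-4 (20 ng/ml), TGF-β (2 ng/ml) and anti-IFN-γ, and Treg cultures held TGF-β and anti-IL-4, with IL-2 given at expansion. A further Th9 group was restimulated at day 5 with 1 µg/ml of anti-CD3 for 6 h; the other 3 groups were not restimulated. Each group had 3 one-colour Agilent arrays, and the labels do not say whether these came from separate cultures or mice, so p-values reflect the variation among these arrays alone, which may be technical. The starting cells were selected by magnet and not described as sorted, and B cells, dendritic cells and other class II-bearing cells live in the same organs.

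B cells recognise antigen through a surface immunoglobulin that signals by way of the CD79A and CD79B chains to the kinases LYN, BLK, SYK and BTK, and their identity is held by the transcription factors EBF1 and PAX5. Class II molecules are paired alpha and beta chains that B cells, dendritic cells and macrophages load with peptide for CD4+ T cells, with the invariant chain CD74 as chaperone and the DM and DO molecules as editors of the loaded peptide. The coactivator CIITA switches on the class II genes as a set, and mouse T cells are known to make little or none of it.

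On each array 59.8 to 63.7% of the 41174 probes were well above background and none was saturated. Levels below are log2 signals of a probe relative to the 75th percentile of its array, which lay between 521 and 796, so they can be compared between arrays for a gene but not between genes. Cd4 and Cd3e, which define the labelled cells, were well above background on all 12 arrays, with Cd4 between -0.47 and 1.46. Il9 ranged from -2.43 to -1.18 on the unstimulated Th9 arrays and was at background on all Th2 and Treg arrays, and Foxp3, the Treg transcription factor gene, was highest on the Treg arrays (0.43 to 0.78). The arrays lay on 3 slides, each scanned apart: slide 1 held the Th2 arrays and Treg array 1, slide 2 held Treg arrays 2 and 3 and stimulated arrays 1 and 2, and slide 3 held the unstimulated Th9 arrays and stimulated array 3. Bulk signals cannot tell fewer cells of a type from less RNA per cell.

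The members were highest in the Treg cultures. All 3 Treg arrays lay above the other 9 arrays for 23 of 28 B lineage members and for 8 of 10 class II members, against 3998 of 17925 genes (22.3%) overall. The Treg mean was the highest of the 4 group means for 27 B lineage members, Cd40 being the exception, and for 8 class II members, H2-Ab1 and H2-DMa being highest in Th9 cultures. At the low end, the stimulated Th9 mean was the lowest for 15 of 28 B lineage and 8 of 10 class II members. The B lineage count includes Cd180, which was at background in every group but Treg. It also includes Ms4a1 and Blnk, whose stimulated arrays 1 and 2 averaged above the Th9 mean while array 3 lay below it. These orders of group means were not counted over all genes.

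**Figure D1:**
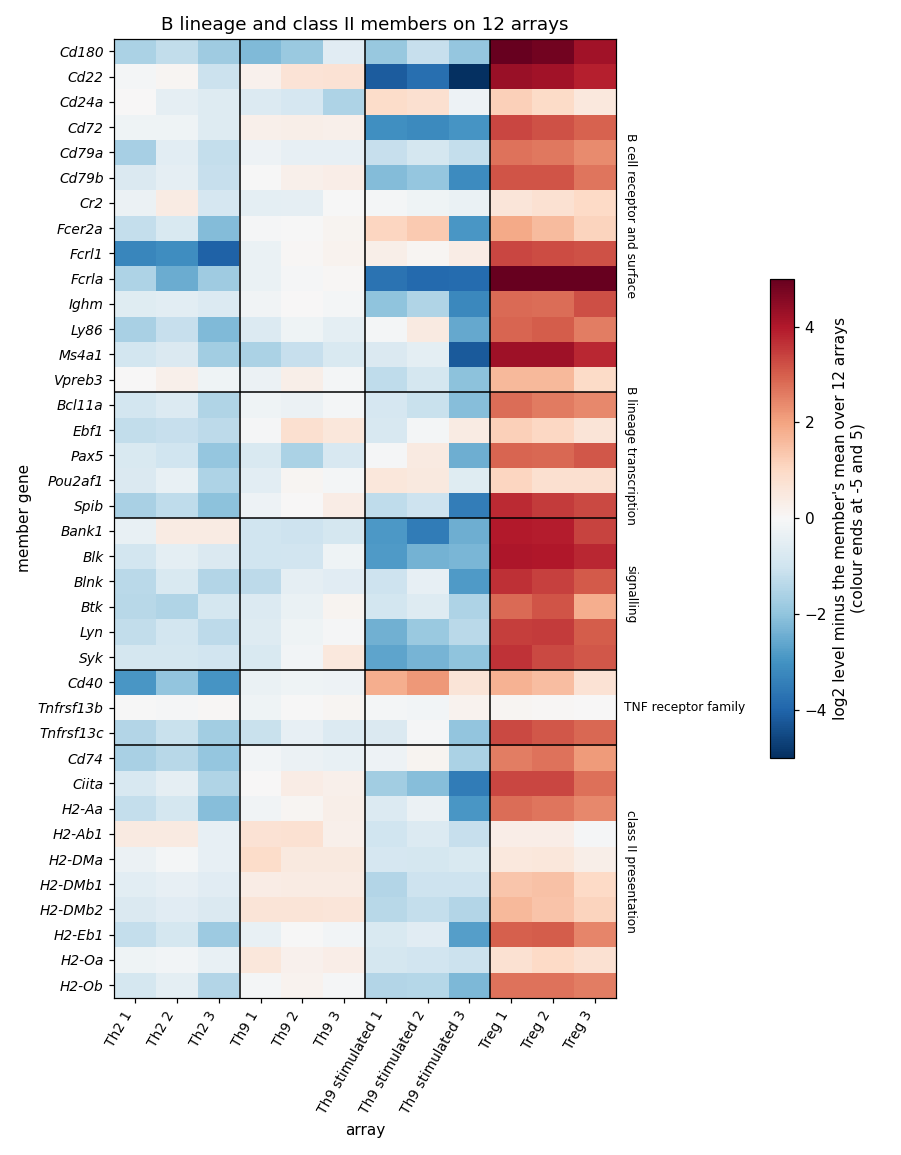
Level of each of the 38 members (rows, grouped by role) on each of the 12 arrays (columns), as the log2 level minus that member's mean over the 12 arrays; red is above and blue below the mean. The Treg columns are red for most rows and palest for Tnfrsf13b, H2-Ab1 and H2-DMa, and stimulated array 3 is bluer than stimulated arrays 1 and 2 for Ms4a1, Fcer2a, H2-Aa and others.

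In Th9 against Treg cultures, limma called 25 of 28 B lineage members lower in Th9 and none higher, with a median log2 difference of -3.16. Over all genes tested the called shares were 35.3% lower and 28.8% higher, and the median difference was -0.11. Th2 against Treg cultures gave 27 of 28 lower and none higher (33.5% lower and 29.3% higher over all genes) with a median of -3.90. Both comparisons use the same Treg arrays and are therefore not independent of each other.

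Among the receptor and surface genes, 13 of 14 were lower in Th9 and all 14 were lower in Th2 than in Treg cultures. Ms4a1, which encodes CD20, stood at 4.73, 4.71 and 4.26 on the Treg arrays, -1.10, -0.66 and -0.28 on the Th9 arrays, and -0.45, -0.24 and -1.24 on the Th2 arrays. The Treg arrays were thus clear of both other groups, which overlapped each other. Its log2 difference was -5.25 ± 0.79 (SE, n = 3 per group) for Th9 minus Treg (adjusted p = 0.000175) and -5.21 for Th2 minus Treg (adjusted p = 0.000184).

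The paired signalling chains of the B cell receptor differed by similar amounts between these cultures in the main fit. Cd79b was at 5.06, 5.06 and 4.61 in Treg, 1.90, 2.19 and 2.25 in Th9 and 1.20, 1.49 and 0.78 in Th2 cultures, a difference of -2.80 ± 0.29 between Th9 and Treg (adjusted p = 1.31e-05). Cd79a was at -1.50, -1.55 and -1.86 in Treg, -4.47, -4.63 and -4.62 in Th9 and -5.86, -4.74 and -5.41 in Th2 cultures, where 2 of the 3 arrays were well above background. Its Th9 minus Treg difference was -2.93 ± 0.24 (adjusted p = 1.76e-06), close to that of its partner. With normexp correction, which compresses dim signals, the Cd79a difference shrank to -1.70, and to -1.79 for Th2 minus Treg. Cd79b stayed between -3.96 and -3.56 for Th2 minus Treg under every alternative, so the likeness depends on the background correction.

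Ighm, the immunoglobulin mu heavy chain, was at 7.87, 7.81 and 8.23 in Treg, 4.83, 5.05 and 4.93 in Th9 and 4.40, 4.48 and 4.34 in Th2 cultures. That is 8.2-fold lower in Th9 than in Treg cultures (adjusted p = 1.75e-05), and its other 2 probes gave differences of -2.90 and -3.15. Cd22, an inhibitory co-receptor, was at 2.89, 2.76 and 2.44 in Treg and -1.21, -0.75 and -0.73 in Th9 cultures (12.1-fold, adjusted p = 6.91e-06). Cd72, another inhibitory B cell lectin, was 7.39-fold lower in Th9 with arrays that barely varied, 0.62, 0.67 and 0.62 against 3.70, 3.55 and 3.32 (adjusted p = 5.24e-08).

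Several surface genes were near background outside the Treg cultures. Fcrla, an Fc receptor-like protein of B cells, was at 1.52, 1.77 and 1.34 in Treg and -4.65, -4.35 and -4.25 in Th9 cultures, a 62.2-fold difference (adjusted p = 1.07e-08). In Th2 cultures none of its signals was well above background, so the Treg excess there was at least 170-fold. Cd180, a Toll-like receptor relative of B cells, was at -0.90, -1.26 and -1.91 in Treg cultures and not well above background on any of the other 9 arrays. It was at least 26.9-fold higher in Treg than in Th9 cultures and at least 22.9-fold higher than in Th2 cultures, these bounds being set against the lowest signal called well above background on each array. With normexp correction, which compresses dim signals, its log2 differences were -2.33 and -2.22.

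The rest of this group spanned a wide range. Ly86, the partner protein of CD180, was lower in Th9 than in Treg cultures by a log2 difference of -3.29, and Fcrl1, an Fc receptor-like activating receptor, by -3.30. Cd24a, a glycoprotein also found on other leukocytes, differed by -1.91, and Vpreb3, a surrogate light chain relative, by -1.44. Fcer2a, the low-affinity IgE receptor CD23, was not called (-1.50 ± 0.89, adjusted p = 0.164), although its Treg arrays (0.26, -0.05 and -0.51) did not overlap its Th9 arrays (-1.67, -1.64 and -1.50). Against Th2 cultures it was called (-2.90, adjusted p = 0.0155), but not once Th2 array 3 was left out (-2.5, adjusted p = 0.0573).

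Cr2, which encodes the complement receptors CD21 and CD35, depended on the probe. The reported probe read -4.31, -4.14 and -3.91 in Treg and -5.38, -5.37 and -4.92 in Th9 cultures, a difference of -1.10 ± 0.27 (adjusted p = 0.00415). The other probe averaged -2.05 in Treg cultures and was at background throughout the other 3 groups, so no size is given for it.

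Of the lineage transcription genes, 4 of 5 were lower in Th9 cultures and all 5 in Th2 cultures, each against Treg cultures. Pax5, the factor that holds B cell identity, was at -0.49, -0.53 and -0.32 in Treg, -4.16, -5.01 and -4.20 in Th9 and -4.17, -4.42 and -5.35 in Th2 cultures, a 16.1-fold difference between Treg and Th9 (adjusted p = 0.000221). Spib, an ETS factor of B cells and plasmacytoid dendritic cells, was at 2.43, 2.19 and 2.00 in Treg and -1.58, -1.30 and -0.96 in Th9 cultures (11.2-fold, adjusted p = 0.000174). Bcl11a, a zinc finger factor of early lymphocytes and dendritic cells, differed by -2.81.

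Pou2af1, the octamer coactivator OCA-B, differed less, at 3.32, 3.06 and 3.04 in Treg against 1.72, 2.33 and 2.15 in Th9 cultures. Its difference of -1.07 ± 0.35 (adjusted p = 0.0201) was not called without Th9 array 1 (-0.90, adjusted p = 0.0735) or Treg array 1 (-0.98, adjusted p = 0.0627). Ebf1, which commits progenitors to the B lineage, was the exception in this role. Its Treg arrays (-2.47, -2.60 and -2.99) overlapped its Th9 arrays (-3.70, -2.86 and -3.08), with a difference of -0.52 ± 0.30 (adjusted p = 0.143), while its Th2 arrays lay apart at -4.88, -4.79 and -4.96. A second, dimmer Ebf1 probe was well above background on the Treg arrays only, and with normexp correction the reported probe was called (-0.39, adjusted p = 0.0475).

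The 6 signalling genes were all lower in both Th9 and Th2 than in Treg cultures, with log2 differences from -4.73 to -2.88 for Th9 minus Treg. Blk, a SRC family kinase of B cells, was at -0.63, -0.66 and -0.91 in Treg, -5.64, -5.63 and -4.86 in Th9 and -5.56, -5.16 and -5.38 in Th2 cultures, a 25.0-fold difference between Treg and Th9 (adjusted p = 5.43e-08). The adaptor gene Blnk was at 5.02, 4.80 and 4.42 in Treg and 0.05, 0.91 and 0.81 in Th9 cultures (17.8-fold, adjusted p = 4.20e-05). Bank1, a scaffold protein of B cells, differed by -4.73, Lyn by -3.63, Syk by -3.47 and Btk by -2.88. LYN, SYK and BTK also serve myeloid cells.

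The 3 TNF receptor family genes split. Tnfrsf13c, the BAFF receptor, was at 2.74, 2.55 and 2.31 in Treg and -1.67, -0.98 and -1.25 in Th9 cultures (14.3-fold, adjusted p = 1.16e-05). Cd40, through which T cells help B cells and dendritic cells, was at -1.14, -1.37 and -2.17 in Treg and -3.21, -3.12 and -3.13 in Th9 cultures (3.02-fold, adjusted p = 0.00527). Tnfrsf13b, the receptor TACI, read between 2.43 and 2.79 on all 12 arrays and was called in none of the comparisons. Its other probe, which was dimmer, was 1.00 lower on the log2 scale in Th9 than in Treg cultures and was called, so the level of this gene is uncertain.

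**Figure D2:**
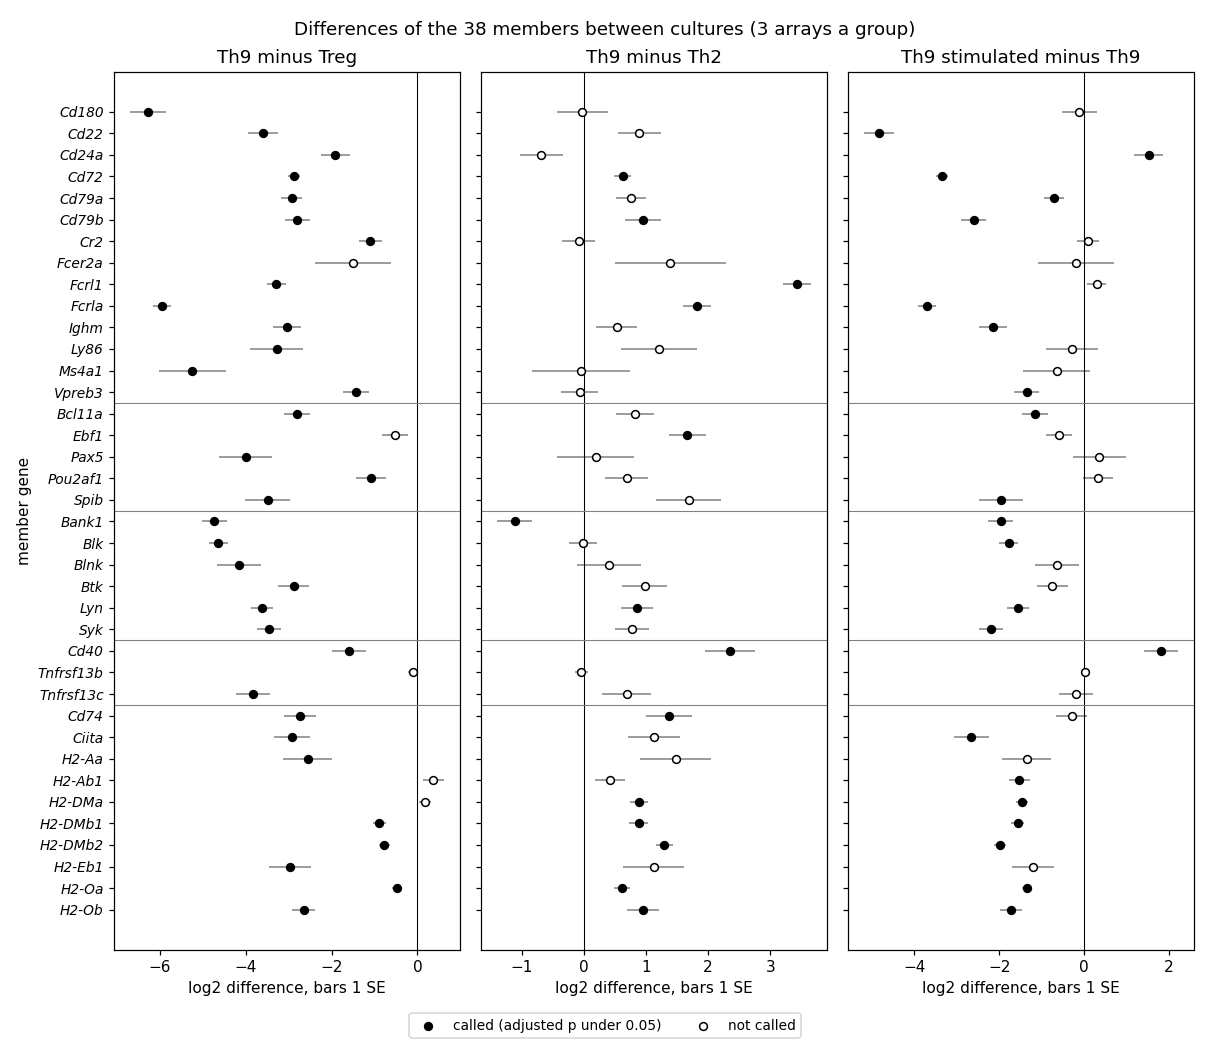
Log2 difference of each member (rows) for Th9 minus Treg, Th9 minus Th2 and stimulated minus unstimulated Th9 cultures, with bars of 1 limma standard error over 3 arrays a group; filled points were called at an adjusted p under 0.05. The first panel lies left of 0 for all rows but H2-Ab1 and H2-DMa, the second lies mostly right of 0, and the third has points on both sides, with Cd22 at -4.84 and Cd40 at 1.80.

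Class II members were lower in Th9 than in Treg cultures for 8 of 10, with a median log2 difference of -1.73, and lower in Th2 than in Treg cultures for 9 of 10, with a median of -2.83. None was called higher in either comparison. Cd74, the invariant chain, was at 5.21, 5.37 and 4.75 in Treg, 2.52, 2.33 and 2.26 in Th9 and 1.03, 1.26 and 0.69 in Th2 cultures. The 3 groups did not overlap, and the Treg level was 6.68-fold above Th9 (adjusted p = 7.70e-05) and 17.3-fold above Th2 (adjusted p = 3.85e-06).

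Ciita, the class II coactivator, followed the same order, at 2.5, 2.48 and 1.88 in Treg, -0.85, -0.49 and -0.59 in Th9 and -1.65, -1.29 and -2.35 in Th2 cultures. Its difference was -2.93 ± 0.41 between Th9 and Treg (adjusted p = 0.000110). H2-Eb1, the I-E beta chain, was at 4.11, 4.15 and 3.57 in Treg, 0.78, 1.13 and 1.02 in Th9 and -0.04, 0.27 and -0.67 in Th2 cultures, 7.83-fold lower in Th9 than in Treg (adjusted p = 0.000327). C57BL/6 mice lack the partner I-E alpha chain at the cell surface, so this transcript is present without a complete I-E molecule.

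The alpha and beta chains of I-A did not move alike. H2-Aa, the alpha chain, was at 2.68, 2.58 and 2.32 in Treg, -0.28, -0.01 and 0.19 in Th9 and -1.31, -0.99 and -2.24 in Th2 cultures, 5.89-fold lower in Th9 than in Treg (adjusted p = 0.00251). H2-Ab1, the beta chain, was at 5.36, 5.36 and 4.96 in Treg, 5.74, 5.79 and 5.27 in Th9 and 5.47, 5.45 and 4.62 in Th2 cultures, which overlap (0.37 ± 0.24 for Th9 minus Treg, adjusted p = 0.2). The 3 further H2-Ab1 probes gave Th9 minus Treg differences of -0.06, -0.01 and 0.17, and 2 of them were called lower in Th2 than in Treg cultures, by -0.67 and -0.75.

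Within each array, the log2 ratio of H2-Aa to H2-Ab1 was -2.70 ± 0.07 (SD, n = 3) in Treg and -5.63 ± 0.49 in Th9 cultures, a change of 2.93 with no overlap. An exact two-sided permutation test of 3 against 3 arrays cannot go below p = 0.1, so this change is a description. This pair was chosen after its values were seen, along with Cd79a to Cd79b and H2-DMb1 to H2-DMa. The Cd79a to Cd79b ratio differed by 0.14 between Treg and Th9 cultures with overlapping arrays. That small change was not kept as a claim under normexp correction, where the dim Cd79a shrank to -1.70.

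The peptide editing genes varied among themselves. H2-Ob, the DO beta chain, was at 0.78, 0.76 and 0.60 in Treg and -2.04, -1.76 and -2.02 in Th9 cultures (6.29-fold, adjusted p = 8.01e-06), whereas its partner H2-Oa was at 3.48, 3.73 and 3.50 against 3.30, 2.93 and 3.06 (1.39-fold, adjusted p = 0.00601). H2-DMa, the DM alpha chain, was not called between Th9 and Treg cultures (2.58, 2.13 and 2.13 against 2.18, 2.22 and 1.93, adjusted p = 0.327). H2-DMb1 and H2-DMb2 are near-identical beta chain genes whose probes may read each other's transcript, and they were 1.86-fold and 1.70-fold lower in Th9 than in Treg cultures.

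Promoter sequence was looked at because the class II genes are known to share an upstream element, read by RFX, CREB and NF-Y proteins, through which CIITA acts. RefSeq promoters on GRCm38.p6, covering 250 bases before to 50 bases after each start site, were matched for 28 of the 38 members. The Y box core, CCAAT on either strand, was in all 7 matched class II genes (for H2-DMa in 1 of its 2 listed promoters), against 41.1% of the 27025 genes of the table. Of the 21 matched B lineage genes 7 held it. The stretches shown run from base -150 to base -31 before the start site, 5′ to 3′ along the gene, with CCAAT or ATTGG and the X box core CCTAGCAA in capitals; they were chosen because their Y box core lies in that stretch.
H2-Aa, chr17:34287854-34287973, minus strand: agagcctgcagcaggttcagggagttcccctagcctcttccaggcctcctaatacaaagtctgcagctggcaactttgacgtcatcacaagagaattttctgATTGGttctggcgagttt
H2-Eb1, chr17:34305717-34305836, plus strand: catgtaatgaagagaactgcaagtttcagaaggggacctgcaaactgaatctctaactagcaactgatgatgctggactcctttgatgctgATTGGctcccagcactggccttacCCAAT
H2-Ob, chr17:34238755-34238874, plus strand: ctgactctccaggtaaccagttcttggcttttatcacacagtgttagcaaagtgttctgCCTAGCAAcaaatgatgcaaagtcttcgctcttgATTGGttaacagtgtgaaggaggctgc
H2-Oa, chr17:34092229-34092348, plus strand: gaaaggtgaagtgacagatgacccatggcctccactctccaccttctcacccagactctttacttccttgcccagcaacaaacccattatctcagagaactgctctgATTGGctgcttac
H2-DMb1, chr17:34153041-34153160, plus strand: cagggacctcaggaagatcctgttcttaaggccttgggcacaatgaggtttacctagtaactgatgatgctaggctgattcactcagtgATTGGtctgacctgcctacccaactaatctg
H2-DMb2, chr17:34145099-34145218, plus strand: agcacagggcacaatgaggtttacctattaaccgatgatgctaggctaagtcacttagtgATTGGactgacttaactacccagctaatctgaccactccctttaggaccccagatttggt
The ATTGG run began at base -48 in H2-Aa, -59 in H2-Eb1, -57 in H2-Ob, -43 in H2-Oa, -61 in H2-DMb1 and -90 in H2-DMb2, on the gene's own strand in all 6. H2-Ob held the exact X box core at base -91. Those letters were in 1 of 7 class II genes, 1 of 21 B lineage genes (Syk) and 1.57% of all genes. The CCAAT letters were thus found both in H2-Ob and H2-Aa, which differed 6.29-fold and 5.89-fold between Treg and Th9 cultures, and in H2-Oa, which differed 1.39-fold.

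Other motifs were counted in the same windows on either strand. The octamer ATGCAAAT was in 2 of 21 B lineage genes, Blnk and Vpreb3, and in 1.97% of all genes, and in none of the 7 class II genes. The ETS purine box GAGGAA was in 8 of 21 B lineage genes, 1 of 7 class II genes (H2-DMb1) and 31.3% of all genes. The EBF1 letters TCCCNNGGG were in 1 of 21 B lineage genes (Cd22), 1 of 7 class II genes (H2-DMb2) and 7.48% of all genes. A match here describes letters in a window and not a bound site.

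High Treg signals were also seen in genes outside the B lineage and class II members. Over all genes, 35.3% were called lower and 28.8% higher in Th9 than in Treg cultures. Of the 22 tested genes of a second B cell list, 16 were lower and 3 higher in Th9 than in Treg cultures, led by the inhibitory Fc receptor Fcgr2b (-4.57), the light chain segment Iglv1 (-4.27) and the follicle homing receptor Cxcr5 (-3.85). The plasma cell list went mostly the other way, with 2 lower (Jchain, -5.81, and Mzb1, -2.37) and 3 higher genes of 5, among them Xbp1 (2.46). Its median log2 difference was 0.89. Of 12 other class II pathway genes 7 were lower and 3 higher, with a median of -0.38 against -0.11 over all genes. The largest differences were those of the lipid presenter Cd1d1 (-3.66), the class II ubiquitin ligase Marchf1 (-3.64) and the protease Ctss (-1.72).

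Markers of other cells were mixed. Of 12 tested genes of the myeloid and dendritic list, 6 were lower and 4 higher in Th9 than in Treg cultures, beside 35.3% lower and 28.8% higher over all genes. The mean level of the list ran from -2.68 to -2.48 on the Treg arrays against -3.30 to -3.09 on the Th9 arrays. Lyz2, the macrophage lysozyme, was at 0.95, -0.45 and 0.75 on the Treg arrays and Itgam at -5.03, -5.04 and -3.57, and neither was well above background on any other array. In the other direction, Batf3 ran from 4.90 to 5.32 on the Th9 arrays and from 0.81 to 1.22 on the Treg arrays. Batf3 was the gene of this list most raised in Th9 against Treg cultures. Clec9a, Fcgr1, Mrc1 and Siglech, which mark particular macrophage and dendritic cells, were not well above background on any of the 12 arrays.

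General T cell and interferon genes were counted in the same way, beside the same 35.3% lower and 28.8% higher over all genes. Of 14 general T cell genes, 9 were lower in Th9 cultures and none higher, led by Cd27 (-2.98), a TNF receptor family member. Of 9 tested interferon-γ response genes, 8 were lower and 1 higher, led by Iigp1 (-3.62), and of 10 tested class I pathway genes 7 were lower and none higher. The labels list anti-IFN-γ for the Th2 and Th9 cultures and not for the Treg cultures. The part of these cells and signals in the members' levels was not tested.

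Slide and culture were only partly separable. Within slide 1, where the Th2 arrays meet Treg array 1, 35 of the 36 calls between Th2 and Treg were kept, all but Cr2 (-0.83, adjusted p = 0.251); with a single Treg array there, that array is assumed to vary like the Th2 arrays. Th9 and Treg arrays share no slide and meet in a slide-blocked fit only through the stimulated arrays. That fit sets slide 3 against slide 2 only by stimulated array 3 against stimulated arrays 1 and 2, so their gap enters each difference. The gap was -4.08 for Fcer2a, -3.60 for Ms4a1, -2.44 for H2-Aa and -1.14 for Pou2af1. There 19 of 33 calls were kept, and 16 B lineage and 3 class II members were called lower. Of 17925 genes, 3528 were called lower and 3157 higher in that fit. H2-Aa (-0.05, adjusted p = 0.956) and Ms4a1 (-1.56, adjusted p = 0.0540) were not called. In that fit Fcer2a turned to 2.76 (adjusted p = 0.00717) and Pou2af1 to 0.16 (adjusted p = 0.830).

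Th9 and Th2 cultures, which differed in added TGF-β, were much closer. Limma called 7 of 28 B lineage members higher and 1 lower in Th9, and 6 of 10 class II members higher and none lower, where 7.76% of all genes were called higher and 9.25% lower. The median log2 difference was 0.73 for B lineage and 1.04 for class II members, against -0.03 over all genes. All 10 class II differences were above 0, as were 20 of the 28 B lineage differences.

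Fcrl1 had the largest of these differences. It was at -2.88, -2.48 and -2.37 in Th9 and -5.80, -5.65 and -6.57 in Th2 cultures, where its probe was well above background on 1 of 3 arrays, a difference of 3.43 ± 0.22 (adjusted p = 8.69e-06). Cd40 was 5.11-fold higher, at -3.21, -3.12 and -3.13 in Th9 against -5.79, -4.88 and -5.85 in Th2 cultures (adjusted p = 0.00340), with 2 of the 3 Th2 arrays above background. Ebf1 was 3.17-fold higher (adjusted p = 0.00414), and Fcrla was at least 2.74-fold higher (adjusted p = 0.000386). With normexp background correction the differences of these dim probes shrank. Cd40 (0.72, adjusted p = 0.0573) and Fcrla (0.24, adjusted p = 0.203) were then not called, while Fcrl1 (1.19) and Ebf1 (0.59) were.

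Cd72 (0.63, adjusted p = 0.0124), Lyn (0.85, adjusted p = 0.0450) and Cd79b (0.95, adjusted p = 0.0496) were also higher in Th9. Bank1 was the lone lower member, at -3.84, -3.89 and -3.75 in Th9 against -3.24, -2.46 and -2.46 in Th2 cultures (-1.11 ± 0.28, adjusted p = 0.0236). Ms4a1, Blk, Cr2 and Vpreb3 had differences between -0.08 and -0.01 with overlapping arrays, and Cd180 was at background in both cultures. Cd79a (0.76, adjusted p = 0.05003) and Spib (1.69, adjusted p = 0.0504) missed the threshold narrowly.

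H2-DMb2 had the smallest adjusted p of the class II members, at 0.58, 0.60 and 0.54 in Th9 against -0.77, -0.61 and -0.78 in Th2 cultures (2.45-fold, adjusted p = 0.000165). H2-DMa was 1.86-fold and H2-DMb1 1.85-fold higher (adjusted p = 0.00257 and 0.00318), H2-Oa 1.53-fold (0.00787), Cd74 2.59-fold (0.0281) and H2-Ob 1.93-fold (0.0316). Ciita (1.13 ± 0.41), H2-Aa (1.48 ± 0.57) and H2-Eb1 (1.12 ± 0.49) had differences above 1 but were not called. For H2-Ab1 the groups overlapped (0.42, adjusted p = 0.269).

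The Th9 against Th2 calls above come from a fit that did not pair arrays by replicate number. With the replicate number as a block the 14 calls were kept. Cd79a (adjusted p = 0.0452), Spib (0.0450), Ciita (0.0373) and Cd24a (-0.68, 0.0204) were added. Cd24a was lower in Th9, so that 2 B lineage members were lower. Each omission of a Th9 or Th2 array ended 4 or 5 of the 14 calls, all among Bank1, Cd74, Cd79b, H2-Ob and Lyn, whose highest adjusted p was between 0.0829 and 0.152. Th9 and Th2 arrays share no slide, and with the slide as a block 4 of the 14 calls were kept. In that fit 188 of 17924 genes were called higher and 129 lower.

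Restimulation of Th9 cells for 6 h lowered 13 of 28 B lineage members and raised 2, and lowered 7 of 10 class II members and raised none. Of all genes, 30.5% were called lower and 33.2% higher after restimulation. The median log2 difference was -0.67 for B lineage members (-0.64 with Fcrla and Blk at their bounds) and -1.49 for class II members, and 0.02 over all genes.

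Cd22 had the largest fall on this scale, from -1.21, -0.75 and -0.73 to -5.59, -5.20 and -6.41, with 2 of the 3 stimulated arrays above background (-4.84 ± 0.35, adjusted p = 7.09e-07). With normexp correction it was at -2.45, less than Cd72 at -2.72. Fcrla went from -4.65, -4.35 and -4.25 to values not well above background, a fall of at least 2.94-fold (adjusted p = 2.30e-07) that shrank to -0.32 on the log2 scale with normexp correction. Cd72 fell 10.2-fold to -2.72, -2.82 and -2.61 (adjusted p = 6.20e-08). These 3 surface genes thus left the Th9 range on each stimulated array, as did Cd79b and Ighm.

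Cd79b fell 6.07-fold, to -0.26, 0.00 and -1.22, whereas Cd79a fell 1.63-fold, to -5.34, -5.07 and -5.41 (adjusted p = 1.84e-05 and 0.0223). The Cd79a call was not kept without Th9 array 1 (-0.65, adjusted p = 0.0651), stimulated array 1 (-0.67, adjusted p = 0.0599) or stimulated array 3 (-0.64, adjusted p = 0.0655), nor with normexp correction (-0.02, adjusted p = 0.898). Ighm fell 4.45-fold, to 3.03, 3.51 and 1.82, and its other 2 probes gave differences of -2.10 and, for the dimmest, -0.46, which was not called (adjusted p = 0.220). The kinase genes Syk (-2.20), Blk and Lyn (-1.56) and the scaffold gene Bank1 (-1.97) fell as well, with Blk at least 1.51-fold lower and Bank1 above background on 1 stimulated array; with normexp correction Blk was at -0.02 (adjusted p = 0.878) and Bank1 at -0.37 (adjusted p = 0.0546), both not called, while Syk was at -0.80 and Lyn at -0.75. Spib (-1.96), Vpreb3 (-1.36) and Bcl11a (-1.15) complete the lower members.

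Cd40 and Cd24a rose. Cd40 went from -3.21, -3.12 and -3.13 to -1.06, -0.73 and -2.27 (1.80 ± 0.40, adjusted p = 0.00241), and Cd24a from -0.35, -0.51 and -1.21 to 1.25, 1.15 and 0.07 (1.52 ± 0.34, adjusted p = 0.00244). Both had their lowest stimulated value on array 3, and array 3 alone lay 0.76 above the Th9 mean for Cd24a and 0.89 for Cd40. Cd40 in stimulated Th9 cultures overlapped its Treg arrays.

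Among class II members the steepest fall was that of Ciita, to -2.58, -2.97 and -4.34 from -0.85, -0.49 and -0.59 (6.31-fold, adjusted p = 0.000194). H2-DMb2 fell 3.95-fold, H2-Ob 3.29-fold, H2-DMb1 2.96-fold, H2-Ab1 2.88-fold, H2-DMa 2.75-fold and H2-Oa 2.54-fold. H2-Ab1, whose reported probe was not called between unstimulated cultures in the main fit, went from 5.74, 5.79 and 5.27 to 4.02, 4.33 and 3.87 (adjusted p = 0.000232). Rfxank, a subunit of the RFX complex of class II promoters, fell by 2.73 on the log2 scale (adjusted p = 4.02e-08) and Marchf1 fell to background, among 6 lower and 3 higher genes of the 12 other pathway genes.

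Cd74, H2-Aa and H2-Eb1 were not called, and here the stimulated arrays disagreed. Cd74 was at 2.40 and 2.77 on stimulated arrays 1 and 2, within or above its Th9 range of 2.26 to 2.52, and at 1.05 on stimulated array 3. H2-Aa was at -0.77 and -0.38 on the first pair and -3.01 on array 3, and H2-Eb1 at 0.36, 0.58 and -1.62.

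Stimulated array 3 stood below its 2 fellows for many members. The difference between array 3 and the mean of arrays 1 and 2 was under -1 on the log2 scale for 14 of 28 B lineage members and 4 of 10 class II members, and for 468 of 17912 genes (2.61%). It was -4.08 for Fcer2a, -3.60 for Ms4a1, -2.74 for Ly86, -2.64 for Pax5, -2.44 for H2-Aa, -2.33 for Spib and -2.09 for both Blnk and H2-Eb1. It was between -0.30 and 0.77 for Lyn, Syk, Fcrl1, Cd72, H2-Ab1, H2-DMa, H2-DMb1, H2-DMb2 and H2-Oa, so the drop was not shared by all members. Fcrla, Blk and Bank1, at or near background on the stimulated arrays, could not show it.

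**Figure D3:**
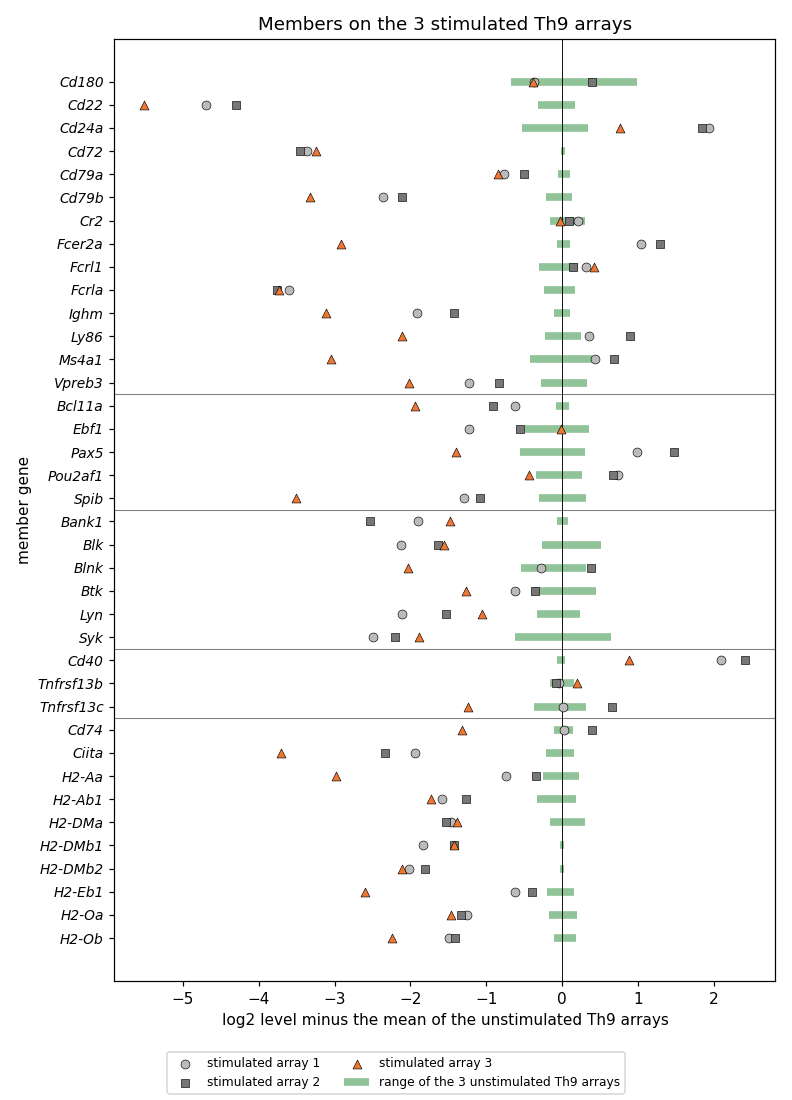
Level of each member (rows) on the 3 stimulated Th9 arrays, as the log2 level minus the mean of the unstimulated Th9 arrays; green bars span the 3 unstimulated arrays. Stimulated arrays 1 and 2 sit right of 0 for Fcer2a, Ly86, Ms4a1 and Pax5 while array 3 sits at -2.92, -2.11, -3.04 and -1.40, and the 3 arrays lie close together for Cd72, Fcrla and the DM genes.

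For several members the direction after restimulation rested on this array. Fcer2a was at -0.56 and -0.31 on stimulated arrays 1 and 2, above its Th9 arrays, and at -4.52 on array 3, below them. Without array 3 Fcer2a was called higher (1.17, adjusted p = 0.0167), as was Pax5 (1.24, adjusted p = 0.0124), whereas array 3 alone lay at -2.92 for Fcer2a and -1.40 for Pax5 relative to the Th9 mean. Stimulated arrays 1 and 2 averaged above the Th9 mean and array 3 below it also for Ms4a1 (0.56 and -3.04), Ly86 (0.63 and -2.11), Cd74 (0.21 and -1.32), Tnfrsf13c (0.33 and -1.24), Blnk (0.05 and -2.04) and Pou2af1 (0.71 and -0.43).

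Without array 3, 13 B lineage members were lower and 4 higher and 7 class II members lower, where 5436 of 17925 genes were lower and 5805 higher. Within slide 3 array 3 is the only stimulated array. There the class II members lay from -3.70 (Ciita) to -1.32 (Cd74) relative to the Th9 mean. B lineage members lay from -5.51 (Cd22) to 0.89 (Cd40). The members called were not the same throughout: without array 3 Cd79a was no longer called and Ebf1 was called lower (-0.89, adjusted p = 0.0170). A test within slide 3 has to assume that the single stimulated array varies like the Th9 arrays, so only sizes are given for it.

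The same array was low for CD8 and natural killer cell genes. All 7 tested genes of that list were more than 1 log2 unit lower on array 3 than the mean of arrays 1 and 2, and the mean level of the list was -0.04 and -0.27 on arrays 1 and 2 and -2.53 on array 3. Cd8a went from 2.47 and 2.29 to -2.23, Cd8b1 from 3.38 and 3.38 to 1.29, and Nkg7, a cytotoxic granule gene, from 3.86 and 3.79 to 0.71. Of 14 general T cell genes 1 fell that far, Cd27, while Cd4 (-0.33, -0.15 and -0.47) and Cd3e did not. Among the 22 other B cell genes 5 did, among them Mef2c (-4.16), as did 3 of 9 interferon-γ response genes and 2 of 12 myeloid and dendritic genes. The part of these cells in the members' drop was not tested.

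B lineage and class II members were then compared as sets, by the mean over each set of the level minus the member's mean over the 12 arrays. The 28 B lineage members averaged 2.91, 2.83 and 2.5 on the Treg arrays, -0.55, -0.29 and -0.15 on the Th9 arrays, -1.05, -0.81 and -1.36 on the Th2 arrays and -1.15, -0.91 and -1.97 on the stimulated arrays. The 10 class II members averaged 1.91, 1.93 and 1.53 on the Treg arrays, 0.25, 0.29 and 0.21 on the Th9 arrays, -0.70, -0.48 and -1.13 on the Th2 arrays and -1.05, -0.90 and -1.85 on the stimulated arrays. Both sets ordered the groups alike by their means, Treg, Th9, Th2 and stimulated Th9, with the Th2 and stimulated arrays overlapping in both.

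**Figure D4:**
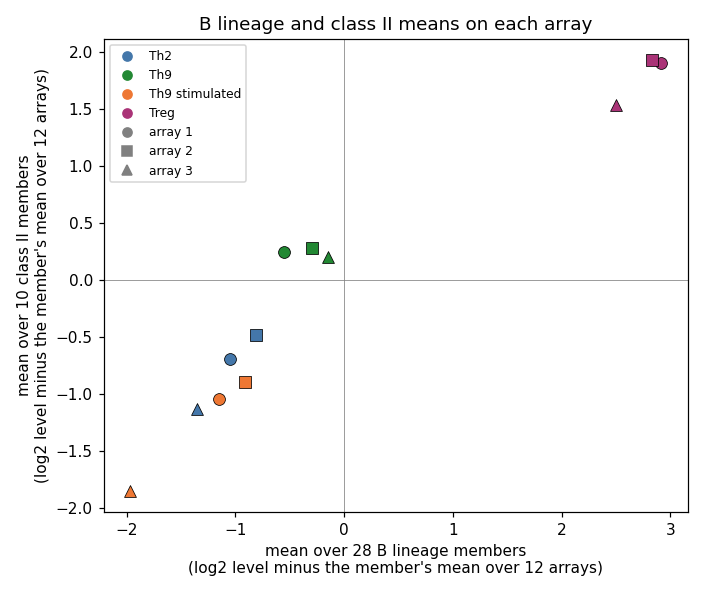
Mean of the 10 class II members (vertical axis) against the mean of the 28 B lineage members (horizontal axis) on each of the 12 arrays, both as the log2 level minus the member's mean over 12 arrays; colours are groups and symbols are array numbers. The 3 Treg arrays sit at the upper right, array 3 is the lowest point of the Th2, stimulated and Treg groups on both axes, and the Th9 arrays are level with each other on the class II axis.

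Within groups the sets also moved alike, except in Th9 cultures. In Th2 and in stimulated cultures the arrays had the same order in both sets, array 3 lowest and array 2 highest, and in Treg cultures array 3 was lowest in both. In Th9 cultures the B lineage mean ran from -0.55 on array 1 to -0.15 on array 3, whereas the class II means lay within 0.21 to 0.29 and array 3 was their lowest. With 3 arrays a group no correlation was computed within groups.

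Counting single members gave the same picture. Th2 array 3 was the lowest Th2 array for 22 of 28 B lineage and all 10 class II members, stimulated array 3 for 19 and 8, and Treg array 3 for 25 and 9. Over all genes these arrays were the lowest of their group for 48.6, 39.7 and 39.8%. In Th9 cultures array 1 was the lowest for 22 of 28 B lineage but 5 of 10 class II members (38.9% of all genes).

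Class II members spanned a narrower range than B lineage members. In Th9 minus Treg differences the B lineage members other than Cd180 ran from -5.96 to -0.10 and the class II members from -2.97 to 0.37. At least 2-fold lower were 26 of 28 against 5 of 10, which was not counted over all genes. Cd74, H2-Aa, H2-Eb1, H2-Ob and Ciita lay between -2.97 and -2.56, while H2-Ab1, H2-Oa, H2-DMa, H2-DMb1 and H2-DMb2 lay between -0.89 and 0.37. The second set of 5 also showed no drop under -1 on stimulated array 3, whereas of the first set only H2-Ob (-0.79) did not. This split was seen in the values and was not tested.

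Genes outside the list whose level followed the B lineage mean most closely over the 12 arrays included Napsa, Wdfy4, Bcar3, Siglecg, Mybpc2, Igflr1 and Ly6d, with a Pearson r from 0.989 to 0.995. Napsa, an aspartic protease gene, averaged 1.95 in Treg, -1.28 in Th9, -1.83 in Th2 and -1.93 in stimulated cultures. Such values over 12 arrays are set largely by the Treg arrays and describe likeness only.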

How the data were processed

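RNA of 12 samples, 3 in each of 4 groups, was labelled with Cy3 and hybridised to one-colour Agilent arrays. Per the file headers, the scanner files were made with Agilent Feature Extraction 10.5.1.1 and hold the processed signal as a linear intensity, already background-corrected by that software. A deposited table of log2 values for the same arrays, made by the authors, served as an alternative only; how it was normalised is not given in the sources used here.

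Control spots and outlier spots were left out, spots of a probe were averaged, and levels were log2 signals less the array's own 75th percentile. A probe was kept when well above background on at least 3 of 12 arrays, and a gene was its kept probe with the highest mean. Groups were compared with limma 3.58.1 in R 4.3.3 (1 mean per group, empirical Bayes, Benjamini-Hochberg adjustment over all genes of a comparison), and called at an adjusted p under 0.05. The 12 arrays share 1 estimate of the spread, and their number limits the precision. The fit was tested on simulated data.

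The members and gene lists were chosen with earlier results of these data known. All members are named whatever their result, with at most 3 called genes of each other list per comparison, Cd4, Cd3e, Il9 and Foxp3, and the 8 genes most like the B lineage mean, of which 1 is not reported here. The genes given for stimulated array 3 and the paired-chain ratios were chosen after their values were seen. Alternatives covered background correction, normalisation, the filter, the probe rule, slide, replicate number and each array left out. An added fit of each probe by itself was chosen after seeing the data.

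Replicate numbers come from the labels. Same-numbered Th9 and Th2 arrays deviated together, with correlations of 0.201, 0.185 and 0.412 over genes, so these numbers may pair those arrays. In the other comparisons at least 1 pair was under 0.1. The main fit used no pairing in any comparison, and the replicate number entered only as a block in an alternative.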

Additional observations from a re-analysis of the deposited data

How the results depend on the processing

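Of 2660 member values under an alternative, 2509 kept their side of the threshold, 76 were no longer called and 68 were newly called. A further 7 reversed with a call in the main fit or in the alternative. Values called in neither fit were counted as kept even where their sign changed, as for Ms4a1 after restimulation without stimulated array 3 (0.56). Leaving the slide as a fixed block aside, 32 of 33 calls between Th9 and Treg, 34 of 36 between Th2 and Treg, 18 of 22 after restimulation and 7 of 14 between Th9 and Th2 were kept under each alternative run. With the slide as a fixed block, Th9 against Treg gave 1 higher and 16 lower B lineage and 3 lower class II members, Th9 against Th2 gave 0 lower B lineage members, and restimulation gave 0 higher; Ms4a1 was at 3.80 in Th9 against Th2, Fcer2a at 2.76 and Pou2af1 at 0.16 in Th9 against Treg, and Pax5 at -1.40 after restimulation. Within slide 3, restimulation gave 1 higher and 20 lower B lineage members and Pax5 at -1.40. With the mean of all kept probes, Th9 against Th2 gave 0 lower B lineage members and Cr2 was at -0.52 after restimulation (adjusted p = 0.0281). With only the 6 arrays compared, 12 B lineage members were higher in Th9 than in Th2. With the replicate block, Th9 against Th2 gave 2 lower B lineage members and Th9 against Treg 1 higher class II member, H2-Ab1 (adjusted p = 0.0345), while H2-Aa and H2-Eb1 were also called lower after restimulation; it ended no other call. Leaving out 1 array at a time gave 0 to 1 lower B lineage members in Th9 against Th2 and 2 to 4 higher ones after restimulation, and Fcer2a ran from -0.94 to 1.17 after restimulation. Beyond what the report states, the cause of these shifts was not tested. With normexp, called differences between Th9 and Treg shrank by over 1.5 times for Cd79a (-1.70), Cr2 (-0.55), Cd180 (-2.33), Pax5 (-2.54), Blk (-2.59) and Btk (-1.84), all still called. Probes near background, such as Fcrla, Cd180, Cd79a, Blk and Bank1, limit what can be said of low levels.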
